A study of Mus musculus with 8 samples.

Results

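The inflammasome and pyroptosis genes described here are Nlrp3, Nlrp1b, Nlrc4, Aim2, Pycard, Casp1, Casp4, Casp8 and Gsdmd. They were chosen by gene symbol from the deposited expression table, which held 9 of 9 of them among 27179 genes. They were compared between 4 cxC26 scr tumors and 4 cxC26 IL-6 KO s1 tumors, each a bulk RNA sequencing library. Both groups were subcutaneous tumors of C26 mouse colon carcinoma cells grown in adult male CD2F1 mice and taken once the host had developed cachexia, the wasting syndrome that C26 tumors cause, with no day of collection given. Knockout cells were implanted in larger number than control cells in other experiments of the study, and the number implanted for the sequenced tumors is not given in the sources used here. In CD2F1 mice of those experiments, hosts of knockout tumors also reached cachexia later, so tumor age may differ between the groups here. The cxC26 scr cells carried a scrambled guide RNA and served as the control, while the cxC26 IL-6 KO s1 cells carried a CRISPR disruption of Il6 and were 1 subclone. An effect of the lost gene, a property of that clone and a possible difference in tumor age or number implanted cannot be told apart. The mice were not knockouts, and the host cells of both groups kept an intact Il6.

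An inflammasome is a protein platform that forms in the cytosol when a sensor meets a danger or infection signal. NLRP3, NLRP1B, NLRC4 and AIM2 are sensors, PYCARD (also called ASC) is the adaptor that links most of them to caspase-1, and caspase-1 matures IL-1β and IL-18 and cuts gasdermin D. The freed fragment of gasdermin D forms pores in the plasma membrane, which is the lytic cell death called pyroptosis. Caspase-4 of the mouse, better known as caspase-11, senses cytosolic lipopolysaccharide and cuts gasdermin D directly, and caspase-8 joins these complexes and drives apoptosis. These proteins are controlled largely after transcription, by assembly and cleavage, and mRNA levels do not measure either step.

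Nlrp1b and Pycard rose in cxC26 IL-6 KO s1 tumors on the deposited scale, and neither was called relative to pan-leukocyte genes in the same tumor. That re-centring moved the median log2 fold change of all tested genes by -1.28, and 11611 genes were called lower under it. The loss of both calls is therefore not read as a result about these members. Relative to those genes Nlrp1b was 0.03 higher and Pycard 0.21 lower on the log2 scale (log2 fold change of -0.21). Both values rest in part on Arhgap15, a leukocyte gene that passed the filter on low expression only through the knockout tumors. They were not computed without it. The deposited scale, called per total reads here, counts a gene's reads against the tumor's library size after a scaling between tumors. Nlrp1b was 2.47-fold higher and Pycard 2.09-fold higher per total reads, with no overlap between the groups. Gsdmd was 1.26-fold higher in mean, also without overlap, but did not pass the test. Nlrp3, Nlrc4, Aim2, Casp1, Casp4 and Casp8 did not pass it either. All 9 members passed the filter on low expression. Of them, 2 were called higher and 0 lower by limma with Benjamini-Hochberg adjustment at 0.05, and limma at an unadjusted p under 0.05 added Gsdmd and no gene that was lower. Over all 13262 genes tested, 19.1% were called higher and 20.7% lower, so the count of members called was close to the background for higher genes. Groups did not overlap for 3 members, all higher, where 17.8% of all tested genes were higher without overlap and 19.3% lower without overlap. The median log2 fold change of the members was 0.09, against 0.0 for all tested genes.

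**Figure D1:**
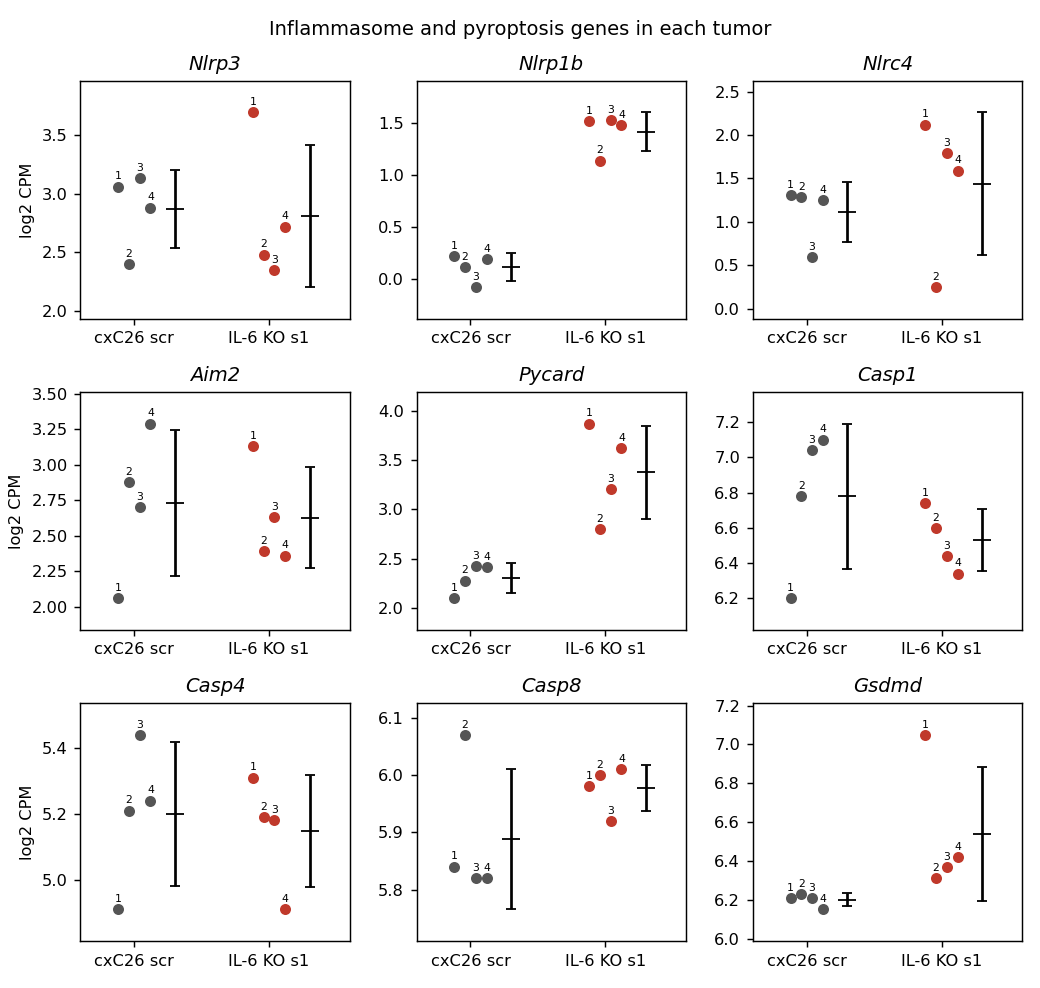
Deposited log2 CPM (reads scaled to the library size of the tumor, y axis, with its own range in each panel) of the 9 members in the 4 cxC26 scr tumors (grey) and the 4 cxC26 IL-6 KO s1 tumors (red), where numbers are replicate numbers and bars are mean ± SD. The groups are apart for Nlrp1b, Pycard and Gsdmd on this scale per total reads and overlap for the other 6 members, and cxC26 IL-6 KO s1 tumor 1 is the highest point for Nlrp3, Nlrc4, Pycard and Gsdmd.

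Some facts about the libraries touch every value. Reads counted on genes ranged from 14158989 to 17048062 in cxC26 scr tumors and from 14222772 to 16232176 in cxC26 IL-6 KO s1 tumors. Il6 had between 326 and 438 reads in the controls and between 56 and 86 in the knockout tumors, which matches the labels. Of the epithelial genes examined as a check of the tumor label, Krt20 had 17390 to 22185 reads, whereas Epcam had 0 to 14 and Krt19 0 or 1. Krt18 (9.19-fold) and Cdh1 (2.75-fold) were called higher in the knockout tumors per total reads, from 21 to 30 and 17 to 37 reads in the controls. The mean log2 CPM of the 3 epithelial genes tested was 3.84 in the controls and 5.46 in the knockout tumors. The host compartment differed between the groups: 6 of 6 pan-leukocyte genes and 9 of 9 macrophage and monocyte genes were called higher in cxC26 IL-6 KO s1 tumors per total reads by the same limma fit. Of the 6, Arhgap15 was at -0.67 to -0.09 log2 CPM in the controls and passed the filter only through the 4 knockout tumors. Arhgap15 also counts in the leukocyte mean and in every comparison relative to pan-leukocyte genes. The mean log2 CPM of the leukocyte genes was 3.75 to 4.03 in the controls and 4.69 to 5.77 in the knockout tumors, and that of the macrophage and monocyte genes was 4.55 to 4.93 and 5.85 to 6.50. In bulk samples, fewer cells of a type and less RNA per cell cannot be told apart. One library stood apart from its group, cxC26 IL-6 KO s1 tumor 1, which had the highest leukocyte mean of all 8 tumors. For the members in which it was the highest of all 8 tumors, the value without it is given as well.

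The RefSeq promoter table (build GRCm38.p6, from 250 bases before to 50 bases after each annotated start) held windows for 8 of the 9 members, and none for Gsdmd. The bases around the start are shown for both members that were called, with 50 bases before the start in lower case and the first 10 transcribed bases in capitals. Pycard lies on the minus strand at chr7:127993858-127993917, and Nlrp1b, also on the minus strand, has annotated starts at chr11:71230724-71230783 and chr11:71201447-71201506.
Pycard: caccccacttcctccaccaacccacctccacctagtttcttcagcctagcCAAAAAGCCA
Nlrp1b, first start: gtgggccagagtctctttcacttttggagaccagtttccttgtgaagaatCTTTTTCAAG
Nlrp1b, second start: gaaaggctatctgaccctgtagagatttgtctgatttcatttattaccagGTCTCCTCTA

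These starts were poor in CpG. Both Nlrp1b windows of 300 bases held 0 CpG dinucleotides and the Pycard window held 3, against a median of 7 over all 32851 windows in the table. The windows of the members that were not called held 2 to 5, with 3 for Casp1, so low CpG was not particular to the called members. The windows were searched on both strands for an interferon element core (GAAANNGAA), a STAT element (TTCNNNGAA) and an NF-κB element (GGANTTTCC), which were present in 8.56%, 8.30% and 1.25% of all windows. Neither called member had a match to any of them in the windows given. The RefSeq gene of Nlrp1b extends to base 71242514, and no window covered that end. A single match was found among the members, an NF-κB element on the minus strand of the Nlrp3 window, whose first base lies at position -122 from the start. Nlrp3 is the sensor whose transcription is classically primed through NF-κB, so the bases around the match are shown from the plus strand at chr11:59541421-59541480, with the match in capitals.
Nlrp3: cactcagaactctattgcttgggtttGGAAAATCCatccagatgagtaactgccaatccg
A match of letters is a description of the window and was not tested as a binding site.

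Among the sensors, Nlrp1b (chr11:71152574-71242514, minus strand) was the member with the largest log2 fold change. NLRP1B is cleaved by pathogen proteases such as anthrax lethal factor, and its gene varies widely between inbred mouse strains, while the reference to which all reads were aligned is that of C57BL/6J. It had 19, 17, 13 and 17 reads in cxC26 scr tumors 1 to 4 and 46, 30, 45 and 40 in cxC26 IL-6 KO s1 tumors 1 to 4. Every knockout tumor was above every control, and knockout tumor 2 was the lowest of its group. The log2 CPM was 0.11 ± 0.13 (SD, n = 4) in cxC26 scr and 1.42 ± 0.19 (SD, n = 4) in cxC26 IL-6 KO s1, a log2 fold change of 1.31 (SE 0.24, 95% interval 0.78 to 1.83, limma with Benjamini-Hochberg adjusted p = 0.00132). The two-sided exact permutation test over all 70 splits gave p = 0.0286, the smallest it can give with 4 against 4. Without knockout tumor 1 the log2 fold change was 1.27. Its neighbour and paralog Nlrp1a had 7, 5, 9 and 6 reads in the controls and 20, 12, 9 and 12 in the knockout tumors, too few to pass the filter. Reads shared between these copies could have been split or lost in counting, so the level of each is uncertain.

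Nlrp3 (chr11:59541569-59566955, plus strand), the sensor of potassium efflux and membrane damage, had 139, 85, 124 and 113 reads in the controls and 209, 77, 80 and 95 in the knockout tumors. Knockout tumor 1 was the highest of all 8 while the other three lay within or just below the range of the controls. The log2 CPM was 2.87 ± 0.33 in cxC26 scr and 2.81 ± 0.60 in cxC26 IL-6 KO s1 (SD, n = 4 each), a log2 fold change of -0.06 with a 95% interval of -0.67 to 0.55 (limma, Benjamini-Hochberg adjusted p = 0.888). Without knockout tumor 1 it was -0.35 and still not called. The interval leaves room for a change of either sign.

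Nlrc4 (chr17:74426255-74459144, minus strand), which forms the platform for bacterial flagellin and secretion system proteins, had 41, 39, 21 and 36 reads in the controls and 70, 16, 54 and 43 in the knockout tumors. The knockout tumors held both the highest and the lowest of the 8 values, in tumors 1 and 2. Group means were 1.11 ± 0.34 and 1.44 ± 0.82 log2 CPM (SD, n = 4 each), a log2 fold change of 0.33 with a 95% interval of -0.49 to 1.14 (limma, Benjamini-Hochberg adjusted p = 0.516). Single tumors moved it from 0.10 without knockout tumor 1 to 0.72 without knockout tumor 2 (limma, Benjamini-Hochberg adjusted p = 0.0568), and it was called in neither case.

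Aim2 (chr1:173349547-173466040, plus strand), the sensor of cytosolic DNA, had 69, 119, 92 and 150 reads in the controls and 142, 72, 97 and 74 in the knockout tumors. The lowest and the highest value both came from controls, tumors 1 and 4. Means of 2.73 ± 0.51 and 2.63 ± 0.36 log2 CPM (SD, n = 4 each) gave a log2 fold change of -0.11 (95% interval -0.68 to 0.47, limma, Benjamini-Hochberg adjusted p = 0.776). The gene body overlaps Cadm3 on the opposite strand without sharing exons.

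The adaptor Pycard (chr7:127991373-127993867, minus strand) had 71, 78, 76 and 82 reads in cxC26 scr tumors and 237, 96, 145 and 177 in cxC26 IL-6 KO s1 tumors. All controls lay close together, and all knockout tumors were above them, from tumor 2 just above to tumor 1 far above. The log2 CPM was 2.31 ± 0.15 in cxC26 scr and 3.37 ± 0.47 in cxC26 IL-6 KO s1 (SD, n = 4 each), a log2 fold change of 1.07 (SE 0.22, 95% interval 0.58 to 1.55, limma with Benjamini-Hochberg adjusted p = 0.00283; exact permutation p = 0.0286). Without knockout tumor 1 it was 0.90 and remained called. Tested genes in the same 10 Mb window of the chromosome had a median log2 fold change of -0.32. An annotated gene on the opposite strand, Gm45205, shares exon sequence with Pycard, and with the strand setting of the counting not given in the sources used here, reads of both cannot be told apart.

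The leukocyte genes followed the order of Pycard in the knockout tumors but not in the controls. Ranked by Pycard, the knockout tumors ran 1, 4, 3, 2, with log2 CPM of 3.87, 3.62, 3.21 and 2.80, and the mean of the 6 leukocyte genes in that order was 5.77, 5.16, 5.14 and 4.69. In cxC26 scr tumors 1 to 4 Pycard was at 2.10, 2.28, 2.43 and 2.42 and the leukocyte mean at 3.75, 3.96, 3.93 and 4.03. Nlrp1b did not keep the order, at 1.52, 1.14, 1.53 and 1.48 in knockout tumors 1 to 4. The mean difference between the groups was 1.27 for the leukocyte genes and 1.42 for the macrophage and monocyte genes, near the 1.31 of Nlrp1b and the 1.07 of Pycard. Ptprc, which encodes the leukocyte antigen CD45, had 663 to 897 reads in the controls and 812 to 2897 in the knockout tumors. The part of leukocyte content in the differences of Pycard and Nlrp1b was not tested. Of the 5 dendritic cell genes listed, Itgax and Zbtb46 were tested and both were called lower, and their mean was 4.78 to 4.86 in the controls and 2.11 to 3.59 in the knockout tumors. The other three were too low to test and had higher means in the knockout tumors, at -1.35 and 0.08 log2 CPM for Flt3, -2.14 and -0.55 for Xcr1 and -0.09 and 0.34 for Cd209a, with no overlap between the groups for Xcr1. Neutrophil genes had means of 1.17 to 2.29 and 1.21 to 2.40, with 1 of 4 tested called higher and 1 lower, and Ly6g, the defining marker, had 0 to 2 reads.

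**Figure D2:**
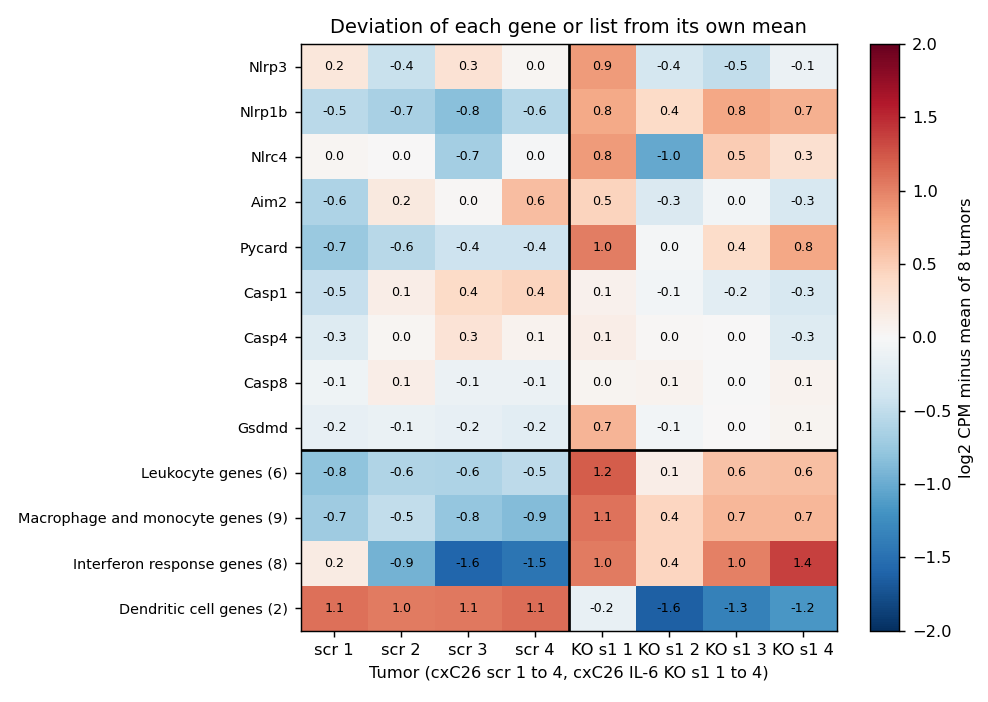
Log2 CPM of each member, and the mean of each marker list (number of genes tested in parentheses), minus its own mean over the 8 tumors (columns), printed in each cell and coloured from blue (lower) to red (higher). Pycard runs from -0.7 to -0.4 in cxC26 scr tumors and reaches 1.0 in cxC26 IL-6 KO s1 tumor 1, where the leukocyte genes are at 1.2, while Casp4 and Casp8 stay between -0.3 and 0.3 in all tumors.

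Casp1 (chr9:5298517-5307281, plus strand), the inflammatory caspase that PYCARD recruits, had 1229, 1781, 1875 and 2110 reads in the controls and 1733, 1340, 1365 and 1174 in the knockout tumors. On the log2 CPM scale, control tumor 1 was the lowest of all 8 tumors at 6.20, the knockout tumors lay between 6.34 and 6.74, and the other three controls were above all 4 of them. Mean levels were 6.78 ± 0.41 and 6.53 ± 0.17 log2 CPM (SD, n = 4 each), a log2 fold change of -0.25 with a 95% interval of -0.63 to 0.12 (limma, Benjamini-Hochberg adjusted p = 0.265). This call rests on 1 library: without cxC26 scr tumor 1 the log2 fold change was -0.45 and Casp1 was called lower (limma, Benjamini-Hochberg adjusted p = 0.012), and under the other alternatives on the scale of total reads the adjusted p ranged from 0.177 to 0.556.

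The next gene on the same strand, Casp4 (chr9:5308849-5336791), had 501, 600, 616 and 582 reads in the controls and 646, 504, 570 and 436 in the knockout tumors, with the ranges interleaved. Mean log2 CPM was 5.20 ± 0.22 and 5.15 ± 0.17 (SD, n = 4 each), and the log2 fold change was -0.05 with a 95% interval of -0.33 to 0.22 (limma, Benjamini-Hochberg adjusted p = 0.767). Of the caspases, Casp8 (chr1:58795233-58847503, plus strand) varied least. It had 953, 1089, 804 and 871 reads in the controls and 1022, 889, 954 and 936 in the knockout tumors, so 1 control was above all the knockout tumors and the other three below them on the log2 scale. The log2 CPM was 5.89 ± 0.12 and 5.98 ± 0.04 (SD, n = 4 each), a log2 fold change of 0.09 with a 95% interval of -0.10 to 0.28 (limma, Benjamini-Hochberg adjusted p = 0.424). Tested genes in the 10 Mb window that holds Casp8 had a median of -0.30, and relative to that median Casp8 was 0.39 higher and called (limma, Benjamini-Hochberg adjusted p = 0.00458).

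Gsdmd (chr15:75862144-75867408, plus strand), which encodes the pore-forming substrate of both inflammatory caspases, had 1235, 1214, 1056 and 1091 reads in the controls and 2148, 1101, 1300 and 1238 in the knockout tumors. On the log2 CPM scale the controls lay between 6.15 and 6.23 and the knockout tumors at 7.05, 6.31, 6.37 and 6.42, so all 4 were above the controls, tumor 1 by far the most. The means were 6.20 ± 0.04 and 6.54 ± 0.34 (SD, n = 4 each). The log2 fold change was 0.34 with a 95% interval of 0.03 to 0.64, and it was not called (limma, Benjamini-Hochberg adjusted p = 0.0796; exact permutation p = 0.0286). Without knockout tumor 1 the log2 fold change was 0.17 (limma, Benjamini-Hochberg adjusted p = 0.14). With quantile normalization it was 0.39 and called (limma, Benjamini-Hochberg adjusted p = 0.0391), and genes in its 10 Mb window had a median of 0.18.

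Tumor 1 of the knockout group recurred among the high values. It was the highest knockout tumor for 7 of the 9 members and the highest of all 8 tumors for 4 of them, where over all tested genes the shares were 28.0% and 15.4%. Its interferon response genes had a mean of 4.35 log2 CPM, within the 3.73 to 4.67 of its group and above the 1.72 to 3.47 of the controls. All 8 interferon response genes were called higher in the knockout tumors per total reads, beside 19.1% of all tested genes. The groups did not overlap for 5 of them. Isg15, Irf7 and Rsad2 overlapped, with cxC26 scr tumor 1 at 3.92, 4.72 and 3.05 log2 CPM. The part of the interferon response genes in the levels of the members was not tested.

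Set against transcript length, the members fell into 2 tiers. In cxC26 scr tumors Casp1 stood at 75.6 ± 19.2 RPKM (reads scaled to transcript length and library size), Gsdmd at 41.0 ± 1.01, Casp4 at 25.8 ± 3.79 and Casp8 at 23.0 ± 2.04 (SD, n = 4). Well below them were Aim2 at 2.45 ± 0.817, Nlrp3 at 1.85 ± 0.386, Nlrc4 at 0.466 ± 0.098 and Nlrp1b at 0.262 ± 0.0235. The effectors of the pathway were thus the abundant transcripts and the sensors the rare ones. Within 1 SD, Casp4 could not be separated from Casp8, nor Aim2 from Nlrp3. In cxC26 IL-6 KO s1 tumors the intervals of Casp1 (62.0 ± 7.56) and Gsdmd (53.0 ± 13.9) met, and Nlrp1b (0.650 ± 0.0787) came level with Nlrc4 (0.634 ± 0.28). Casp4 (24.8 ± 2.80), Casp8 (24.4 ± 0.715), Aim2 (2.23 ± 0.596) and Nlrp3 (1.88 ± 0.90) kept their tiers. Pycard was left out because its annotated transcripts differ too much in length between RefSeq and GENCODE.

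**Figure D3:**
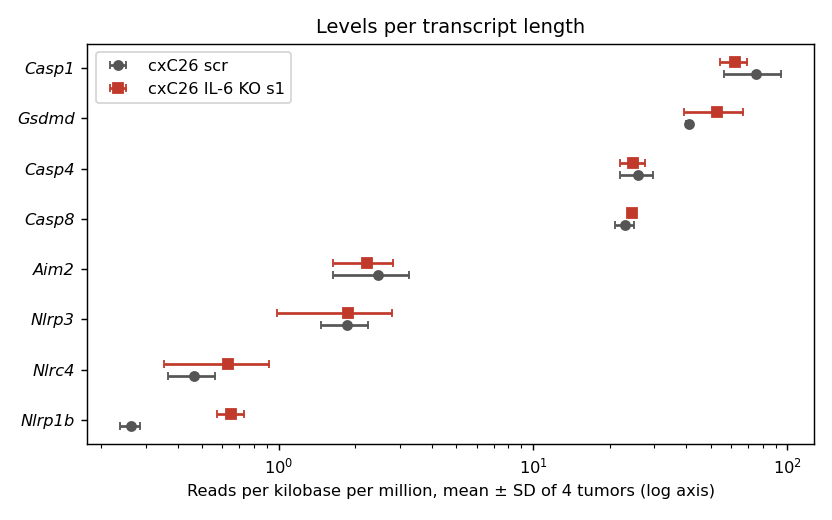
Level per transcript length of 8 members (RPKM, log axis, mean ± SD of 4 tumors) in cxC26 scr (grey circles) and cxC26 IL-6 KO s1 (red squares). Casp1, Gsdmd, Casp4 and Casp8 lie between 23.0 and 75.6 and the 4 sensors between 0.262 and 2.45, and only for Nlrp1b do the bars of the groups not meet.

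Ratios within a tumor, which do not depend on how a tumor is scaled, were compared for 8 pairs of genes by two-sided exact permutation tests, and 0 passed after Benjamini-Hochberg adjustment over the 8 pairs, with 2 at an unadjusted p under 0.05. Those 2 had the smallest p that 4 against 4 tumors can give and still could not pass. No conclusion about single ratios is therefore drawn from the adjusted result. Casp1 exceeded Pycard by 4.48 ± 0.26 on the log2 scale in cxC26 scr and by 3.16 ± 0.48 in cxC26 IL-6 KO s1 (SD, n = 4 each). The difference of -1.32 had an exact permutation p of 0.0286, the smallest possible, and an adjusted p of 0.114. Casp8 lay below Cflar, its catalytically inactive relative and inhibitor, by a log2 ratio of -2.27 ± 0.19 in the controls and -1.90 ± 0.03 in the knockout tumors, a difference of 0.37 (exact permutation p = 0.0286, adjusted p = 0.114). For Casp1 against Casp4 the difference was -0.20 (exact permutation p = 0.114, adjusted p = 0.305), and for Casp1 against Casp8 it was -0.34. The sensor pairs Nlrp3 against Aim2 and Nlrc4 against Nlrp3 differed by 0.05 and 0.38, Nlrp3 against Casp1 by 0.20, and Gsdmd against Gsdme by 0.33.

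Around the members, 38 further genes of the pathway were listed, of which 36 were in the table and 29 were tested. Of these, 9 were called higher per total reads, 2 lower and 18 neither, with a median log2 fold change of 0.09, beside 19.1% and 20.7% of all tested genes. The list of other sensors had 4 of 8 genes tested and 2 called higher. Naip5 and Naip6, receptors that bring flagellin to NLRC4, were at 1.69 ± 0.07 and 0.32 ± 0.32 log2 CPM in the controls and at 2.53 ± 0.38 and 2.47 ± 0.27 in the knockout tumors (SD, n = 4 each). Naip6 had a log2 fold change of 2.15 (limma, Benjamini-Hochberg adjusted p = 6.4e-05) and Naip5 of 0.83 (adjusted p = 0.00894). The Naip genes are close paralogs, so reads may have been split among them. Naip2, the receptor for secretion system rod protein, had 0.39 and Mefv, which encodes pyrin, 0.27, and neither was called. Without knockout tumor 2 Naip2 stood at 0.48 and was called higher (limma, Benjamini-Hochberg adjusted p = 0.0347), and without knockout tumor 1 Mefv stood at -0.05.

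Genes of assembly and regulation had 9 of 11 found and tested, with 4 called higher and none lower. Txnip, whose protein binds NLRP3, was between 6.81 and 7.07 log2 CPM in the controls and between 7.75 and 8.12 in the knockout tumors. The ranges were well apart, with a log2 fold change of 1.05 (SE 0.10). Serpinb1a, which encodes an inhibitor of neutrophil proteases that also restrains caspase-1, went from 0.90 ± 0.17 to 3.54 ± 0.34 (SD, n = 4 each), a log2 fold change of 2.64 (SE 0.21). The guanylate-binding proteins encoded by Gbp2 and Gbp5 are induced by interferon and open bacterial surfaces to caspase-11. Gbp2 was at 2.83, 2.35, 1.77 and 2.04 log2 CPM in the controls and at 7.94, 3.93, 4.05 and 4.40 in the knockout tumors, with a log2 fold change of 2.83, and 1.88 without knockout tumor 1. Gbp5 was at 1.24, 0.91, 0.03 and 0.34 in the controls and at 5.41, 1.58, 2.18 and 2.22 in the knockout tumors, with a log2 fold change of 2.22, and 1.36 without knockout tumor 1. For both genes all knockout tumors were above all controls, and tumor 1 was far above the other three. Gbp5 lost its call when cxC26 scr tumor 3 or 4 was left out, with adjusted p up to 0.0617 in limma with Benjamini-Hochberg adjustment. The partner Nek7 (log2 fold change -0.03), the ATP receptor gene P2rx7 (-0.04), Dpp8 (-0.07) and Dpp9 (-0.06), whose products hold NLRP1B inactive, and Casp12 (-0.05) were not called.

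Substrates and pores had 4 of 7 genes tested and 2 called higher, Ninj1 and Il18. Ninj1, which encodes the protein that ruptures the membrane after pore formation, had 4.57 ± 0.14 log2 CPM in the controls and 5.56 ± 0.21 in the knockout tumors (SD, n = 4 each), and its log2 fold change was 0.99. Il18 was at 0.77, 1.21, 0.60 and 0.94 in the controls and at 1.94, 1.55, 1.32 and 1.37 in the knockout tumors. The groups did not overlap, with a log2 fold change of 0.67 (limma, Benjamini-Hochberg adjusted p = 0.046), a call that was lost on leaving out any single tumor except cxC26 scr tumor 2, with adjusted p up to 0.119. Il1b was at 3.33, 4.69, 4.07 and 4.29 in the controls and at 5.72, 2.98, 2.67 and 3.51 in the knockout tumors. Tumor 1 was again the highest of all 8, and the log2 fold change of -0.37 was not called (limma, Benjamini-Hochberg adjusted p = 0.615), whereas without that tumor it was -1.04 and called lower (limma, Benjamini-Hochberg adjusted p = 0.0123). Gsdme, which encodes another gasdermin, had 0.01. Il1a had 2 to 13 reads, and Gsdmc and Gsdma had 0 reads in every tumor, where up to 3 reads per tumor remain possible by counting error alone.

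Cell death partners of caspase-8 had 12 of 12 genes tested, with 1 called higher, 2 lower and 9 neither. Zbp1, the sensor of Z-form nucleic acids that can engage RIPK3 and caspase-8, was at 1.77 ± 0.54 in the controls and at 5.45, 3.59, 3.61 and 3.42 in the knockout tumors, a log2 fold change of 2.25 (limma, Benjamini-Hochberg adjusted p = 0.00139), and 1.77 without knockout tumor 1. Cflar was at 8.16 ± 0.12 log2 CPM in the controls and at 7.88 ± 0.06 in the knockout tumors (SD, n = 4 each), a log2 fold change of -0.28. Fas, the gene of a death receptor that activates caspase-8, was at 2.87 ± 0.43 and 1.93 ± 0.50, a log2 fold change of -0.94. Both calls were fragile. That of Cflar was lost without cxC26 scr tumor 3 or 4 or without cxC26 IL-6 KO s1 tumor 3, with adjusted p up to 0.0653. That of Fas was lost without cxC26 scr tumor 2 or 3 or without cxC26 IL-6 KO s1 tumor 2 or 3, with adjusted p up to 0.06 (limma, Benjamini-Hochberg adjustment). Among those not called were Fadd, Ripk1, Ripk3, Mlkl, Bid, Casp6 and Casp9, which take part in apoptosis and necroptosis, with log2 fold changes between -0.30 and 0.25.

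**Figure D4:**
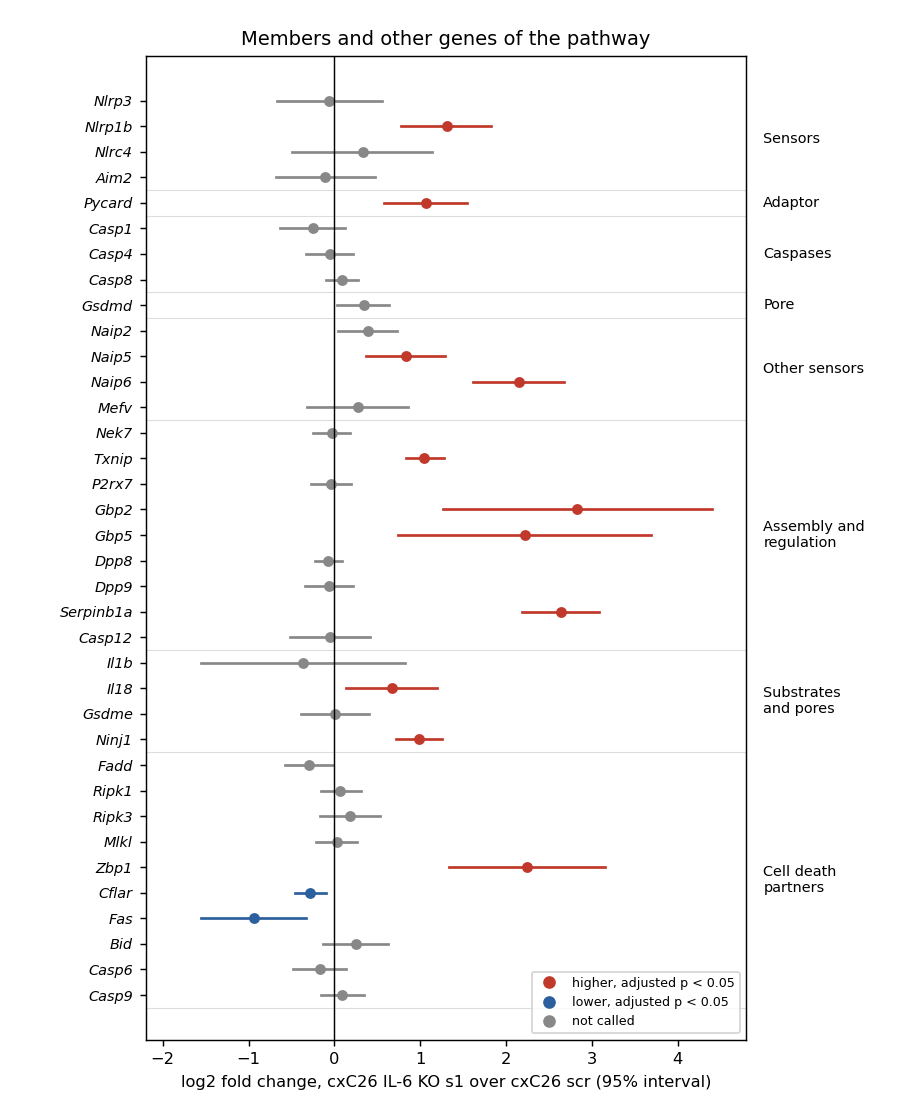
Log2 fold change of cxC26 IL-6 KO s1 over cxC26 scr tumors per total reads (x axis, points) with 95% intervals (lines) for the 9 members and 27 other pathway genes, grouped by role, with n = 4 tumors per group. Red genes were called higher and blue genes lower by limma at a Benjamini-Hochberg adjusted p under 0.05, so a grey interval can lie clear of 0, as for Gsdmd at 0.03 to 0.64, and Gbp2 and Gbp5 have the widest red intervals.

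Genes of most similar pattern were found by the root-mean-square difference over the 8 tumors, with each gene centred on its own mean and all 13262 tested genes searched, which is a description of these libraries. For Pycard, which varied by 0.613 about its mean, they were Fyb (0.099), Ms4a6c (0.101) and Arhgap30 (0.123). For Nlrp1b, which varied by 0.668, they were Nucb2 (0.13), Card19 (0.132) and Cyth4 (0.135). For Gsdmd, which varied by 0.27, they were Birc3 (0.085), Bid (0.09) and H2-Q2 (0.094). Among the other sensors, Sele was nearest to Nlrp3 at 0.178 of 0.422, C6 nearest to Nlrc4 at 0.147 of 0.568, and 6230400D17Rik nearest to Aim2 at 0.157 of 0.386. Med11 was nearest to Casp4 (0.067 of 0.171) and Pak1ip1 to Casp8 (0.046 of 0.092), and Tasor was the nearest gene with a symbol to Casp1 (0.114 of 0.301).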

How the data were processed

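RNA sequencing libraries of 8 tumors, 4 per group, were grouped and numbered by their titles. The authors used Trimmomatic for trimming, HISAT2 for alignment to mm10, featureCounts for gene counts and limma-voom for scaling, and deposited log2 CPM with no filter. The strand setting and most tool versions are not given in the sources used here. Whole reads were recovered by inverting the voom offset of 0.5 reads at each tumor's lowest value, and 100% came out whole. Low genes are limited by counting error.

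Groups were compared with lmFit and trended eBayes of limma 3.58.1, under R 4.3.3. The deposited log2 values entered as they are, for the 13262 genes that reached 1 CPM in 4 or more tumors. The procedure was tested on simulated data. Only genes with higher mean reads than Nlrp1b and Nlrc4 were changed there, by more than Nlrp1b or Pycard changed. It therefore does not show how well changes like theirs are found. P-values were adjusted by Benjamini-Hochberg over all tested genes at 0.05. They set the difference between the groups against the spread of tumors within a group. All knockout tumors came from 1 subclone, so no p-value covers variation between clones. Single values were compared by two-sided exact permutation tests. Gene positions and regional medians came from RefSeq GRCm38.p6, and transcript lengths from GENCODE M21. Same-numbered tumors did not deviate together (r between -0.059 and 0.057). Members and gene lists were chosen with earlier results of these data known. The genes named are all members, genes of the pathway lists, Il6, marker genes of highest level or near 0, and up to 3 genes of most similar pattern to each member. Some genes of the lists are not reported here. Alternatives were other filters, normalizations, variance models and pseudocounts, a replicate block, removal of regional medians, each tumor left out, and re-centring on marker genes, of which the macrophage list was added after the data had been seen. Count models were not run, though the recovered reads entered an alternative with voom precision weights.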

Additional observations from a re-analysis of the deposited data

Results flagged for a closer look

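In each group of 4 tumors, the lowest and highest values of the members, the other pathway genes and the means of marker lists were compared with the rest of the group by Dixon's ratio at its 95% critical value. Of 100 groups examined 13 held a tumor far from the others, where chance gives about 5. No explanation was tested for any of them, and all values are log2 CPM.

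Among the members, cxC26 IL-6 KO s1 tumor 1 had Gsdmd at 7.05 with the other three at 6.31 to 6.42. Tumor 2 of the same group had Nlrp1b at 1.14 with the others at 1.48 to 1.53. In the controls, cxC26 scr tumor 3 had Nlrc4 at 0.60 with the others at 1.25 to 1.31, and cxC26 scr tumor 2 had Casp8 at 6.07 with the others at 5.82 to 5.84.

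Among the other pathway genes, cxC26 IL-6 KO s1 tumor 1 had Gbp2 at 7.94 (others 3.93 to 4.40), Gbp5 at 5.41 (others 1.58 to 2.22), Zbp1 at 5.45 (others 3.42 to 3.61) and Mefv at 3.95 (others 2.63 to 2.71). Mefv was also apart in cxC26 scr tumor 3, at 2.96 with the others at 2.62 to 2.65, and Casp6 was low in cxC26 scr tumor 1, at 5.67 with the others at 6.16 to 6.21.

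Among the marker lists, the mast cell mean of cxC26 IL-6 KO s1 tumor 1 was 2.23 with the other three at 4.49 to 4.62. The T and NK cell mean of cxC26 scr tumor 2 was 0.12 with the others at -1.12 to -1.03, and the B and plasma cell mean of cxC26 scr tumor 1 was -2.42 with the others at -0.22 to -0.04. Both of these lymphocyte lists rest on few reads in the controls.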

How the results depend on the processing

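The count of 2 members called higher, Nlrp1b and Pycard, stayed at 2 with each tumor left out and with the replicate block, and it rose to 3 with quantile normalization and with regional medians removed. It was 0 under the stricter filter, a mean log2 CPM of 3 or more, since both genes average less and left the test. Re-centring subtracts the same amount from every gene of a tumor, which moved the median of all tested genes by -1.28 for pan-leukocyte genes and by -1.42 for macrophage and monocyte genes. Under it 0 members were called higher and 7 lower with either list, and of all tested genes 195 were higher and 11611 lower with the first list and 183 and 12125 with the second. Relative to leukocyte genes the log2 fold change of Nlrp1b was 0.03, of Pycard -0.21, Nlrc4 -0.95, Casp8 -1.18 and Gsdmd -0.94, and relative to macrophage and monocyte genes they were -0.11, -0.35, -1.09, -1.33 and -1.08.

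The count of members called lower ranged from 0 to 1 over single tumors left out, the 1 being Casp1 without cxC26 scr tumor 1. With each tumor left out, log2 fold changes near 0 crossed it for Nlrp3 (-0.35 to 0.10), Aim2 (-0.33 to 0.08) and Casp4 (-0.15 to 0.03), as did the differences of the ratios Nlrp3 against Aim2 (-0.16 to 0.34) and Nlrp3 against Casp1 (-0.03 to 0.45). With regional medians removed these 3 genes stood at 0.04, 0.13 and 0.01. None of these values was called.

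Pathway genes called higher numbered 3 under the stricter filter and 5 with either re-centring. Those called lower numbered 1 with no filter, with the stricter filter and with regional medians removed, 20 relative to leukocyte genes and 23 relative to macrophage and monocyte genes, and 0 to 3 with single tumors left out. The replicate block gave 2477 genes higher and 2688 lower, with 2 members higher and 0 lower, and 8 pathway genes higher. Nothing in the sources used here says that same-numbered tumors share an animal or day. Their deviations did not move together, which cannot exclude a shared day or batch. Beyond the filters and the re-centring, whose construction removes genes or shifts all of them, the cause was not tested. Of the members, depth limits Nlrp1b and Nlrc4 most, at 13 to 46 and 16 to 70 reads.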
